A study of Mus musculus with 6 samples.

Results

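The 55 genes described here encode parts of the mitotic spindle, the kinetochore and the centromere, together with the kinases, checkpoint proteins and cytokinesis factors that act on them. They were chosen by gene symbol from a fixed list of spindle, kinetochore, checkpoint and cytokinesis genes other than cyclins and most kinesins, by a rule that itself uses no measured value. All 55 were found among the 54232 genes of the count table, and 54 of them passed the filter on low counts that left 10067 genes for testing. Nek2, a centrosomal kinase, had 1 count in all, in CK1i replicate 3, and was not tested. The list holds Kifc1 and Cenpe, which are themselves motor proteins of the kinesin family.

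The cells were murine chronic lymphocytic leukaemia (CLL) cells sorted from the spleen. All recipients were wild-type C57BL/6J mice injected into the peritoneum with leukaemia cells of Eµ-TCL1 mice, in which an immunoglobulin enhancer drives the TCL1 oncogene in B cells. In the CK1i group (3 libraries) they received PF-670462, which blocks the casein kinases 1 delta and epsilon, at 50 mg/kg by mouth in 10% kolliphor in PBS, and in the CTRL group (3 libraries) 10% kolliphor in PBS alone. Dosing began on day 5 after transfer, ran 5 days on and 2 days off, and lasted 8 weeks. The experiment ended once the CTRL mice had reached terminal disease. The donors per transfer and the ages of the mice are not given in the sources used here. Whether each library is a separate mouse is not stated, and p-values then measure only how far these libraries spread, which may be technical.

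At the start of mitosis the centrosomes build a bipolar spindle of microtubules, and each chromosome attaches to it through its kinetochore, a protein assembly on the centromeric nucleosomes that contain CENP-A. The inner centromere proteins form the base, the NDC80 and KNL1 proteins of the outer kinetochore hold the microtubules, and the spindle assembly checkpoint delays anaphase until every kinetochore is attached. Most of these genes are transcribed late in the cell cycle, so their messenger RNA is low in resting cells. CLL cells in the blood are mostly at rest, whereas a share of those in lymphoid tissue divides.

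Levels are in CPM, the count scaled to library size, and were normalised by TMM, a method that sets the libraries to a common scale. In every list of 3 values below, the order is replicate 1, 2 and 3 of the group. Fold changes are log2 values of CK1i over CTRL from edgeR's quasi-likelihood test, each with its standard error (SE), and adjusted p-values are Benjamini-Hochberg values over all 10067 genes. The libraries came from 3' ends, so values were not divided by transcript length.

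No gene passed an adjusted p of 0.05 in edgeR (0% of 10067), members included, while DESeq2 passed 8 genes (0.0795%), 3 of them members. All 54 tested members had a log2 fold change above 0, against 48.8% of all tested genes. The median over the members was 0.64, and over all genes it was -0.0055. Of the members, 8 lay above 1, 27 between 0.5 and 1, and 19 between 0 and 0.5. At an unadjusted p of 0.05, 36 members were higher in CK1i, where 272 of all genes (2.70%) were, and 0 members were lower, where 201 of all genes (2.00%) were. In 33 members every CK1i library lay above every CTRL library, against 5.22% of all genes, and in 0 members every CK1i library lay below, against 4.48%. Counts of members in the role groups below are to be read beside these shares. The smallest adjusted p was 0.224, for Troap. In bulk RNA, a different number of cells in mitosis and a different amount of RNA per mitotic cell cannot be told apart.

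**Figure D1:**
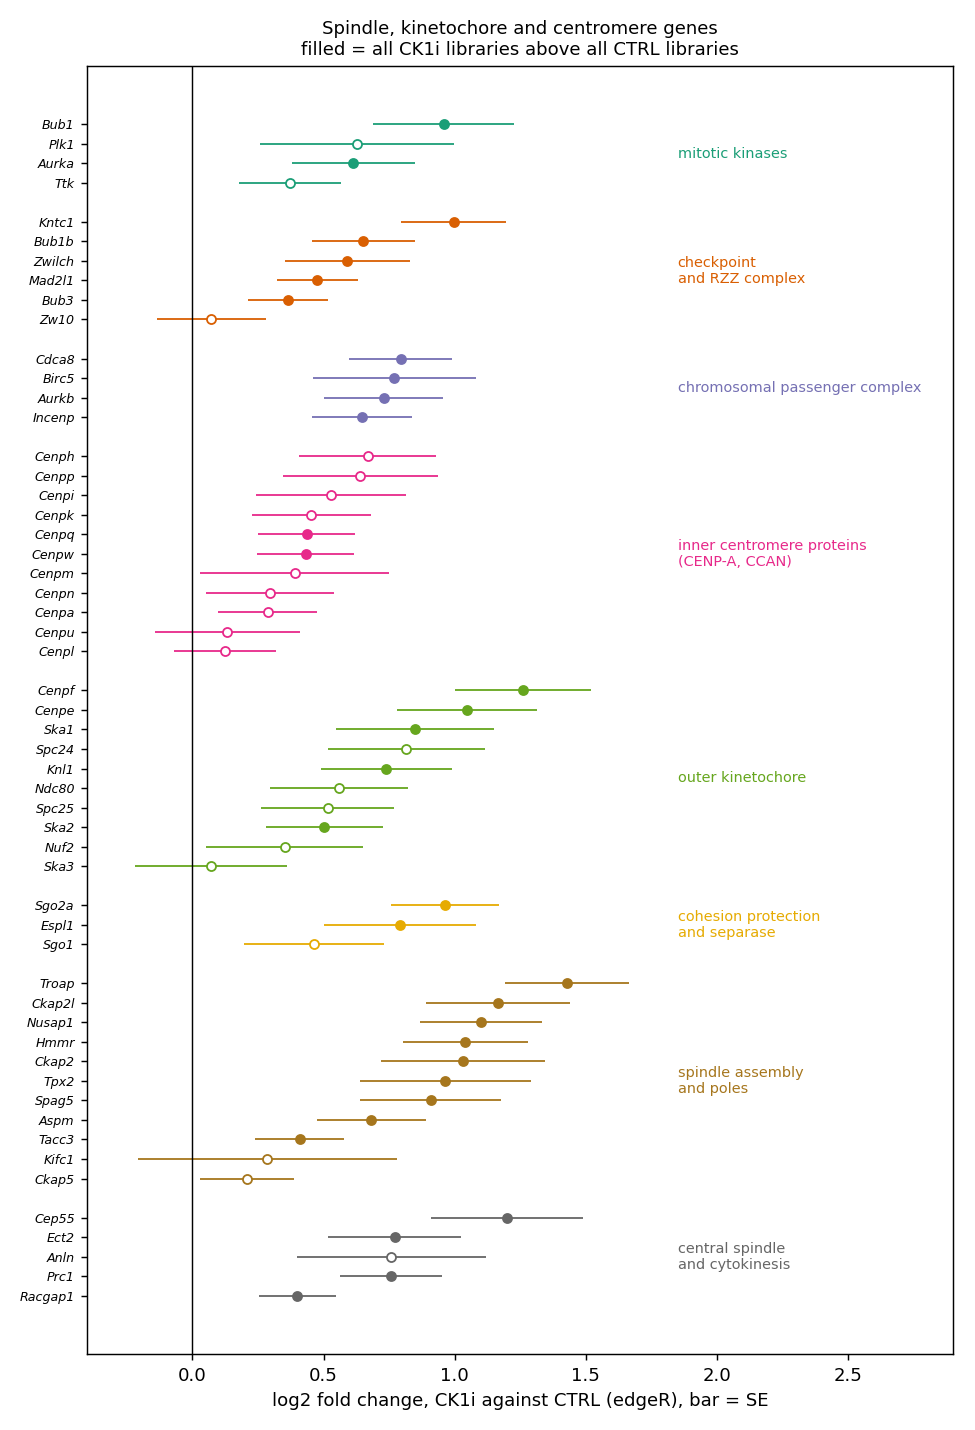
Log2 fold change of CK1i over CTRL for each of the 54 tested genes, grouped by role; points are edgeR estimates, bars are 1 SE, colours are role groups, and filled points are genes with every CK1i library above every CTRL library. Every point lies above 0, from 0.07 for Zw10 and Ska3 to 1.43 for Troap.

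The values did not sit evenly over the libraries. The members together took 0.263%, 0.358% and 0.264% of all counts in the CK1i libraries and 0.149%, 0.235% and 0.196% in the CTRL libraries. CK1i replicate 2 was the highest of the 6 libraries for 44 members, and CTRL replicate 1 was the lowest for 43. Within the CTRL group, replicate 2 was the highest for 45 members and replicate 1 the lowest for 44. The mean log2 CPM of the members was 5.17, 5.62 and 5.21 in CK1i and 4.32, 5.00 and 4.75 in CTRL. The highest CTRL library, replicate 2, thus stood just below the lowest CK1i library, replicate 1. CTRL replicate 1 also stood apart over all genes: on the first principal component, which held 28% of the variance, it lay at 31.4 and the other libraries between -12.4 and 4.68.

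**Figure D2:**
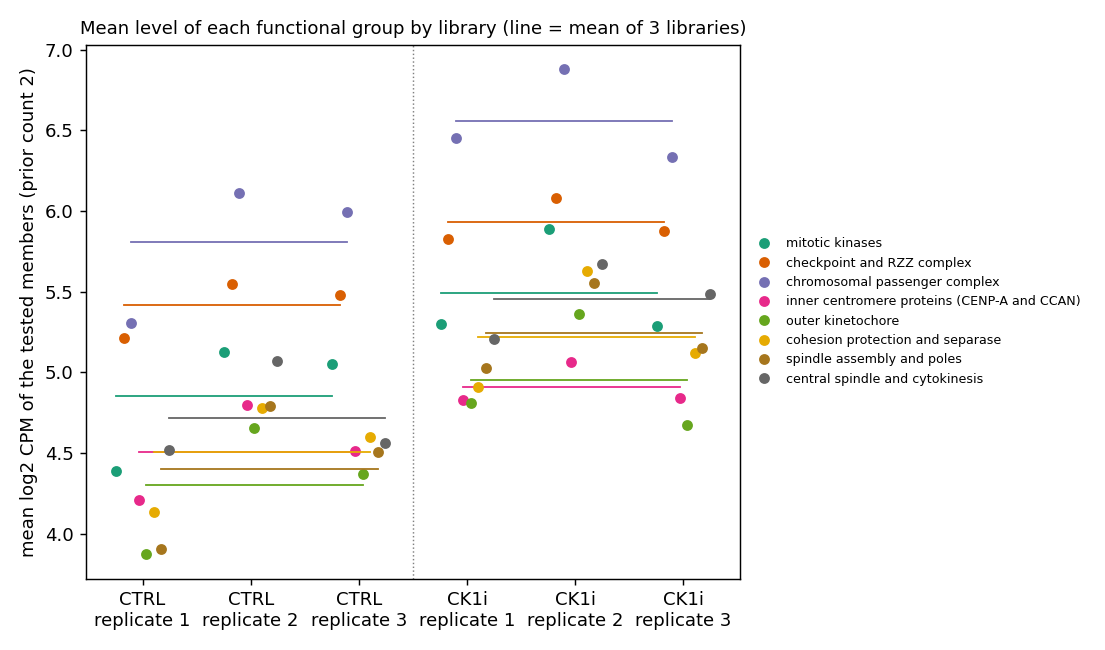
Mean log2 CPM of the tested members of each of the 8 role groups in each library; colours are role groups, each point is 1 library, and lines are means of 3 libraries. In all 8 role groups the CK1i libraries lie above the CTRL libraries, most narrowly in the outer kinetochore (4.67 against 4.66) and the inner centromere (4.83 against 4.80).

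The difference between the groups was smaller without either of these libraries. The members' median log2 fold change was 0.46 with CTRL replicate 1 left out and 0.47 with CK1i replicate 2 left out, and lay between 0.65 and 0.78 without any 1 of the other 4. Without CK1i replicate 2, 21 members were higher at an unadjusted p of 0.05, against 1.73% of all genes in that fit. That count was 27 without CTRL replicate 1, against 3.07%, and also 27 without CTRL replicate 3, against 2.26%. Single fold changes were smaller by over 1.5 times for 18 members without CK1i replicate 2 and for 20 without CTRL replicate 1, and for 1 or 2 members without any 1 of the other libraries. The members with a fold change above 0 numbered 51 without CTRL replicate 1 and 53 without CK1i replicate 2. The members whose groups did not overlap numbered 33 without either of these libraries, where 21.5% of all genes did not overlap in 1 direction or the other without CTRL replicate 1 and 18.2% without CK1i replicate 2.

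**Figure D3:**
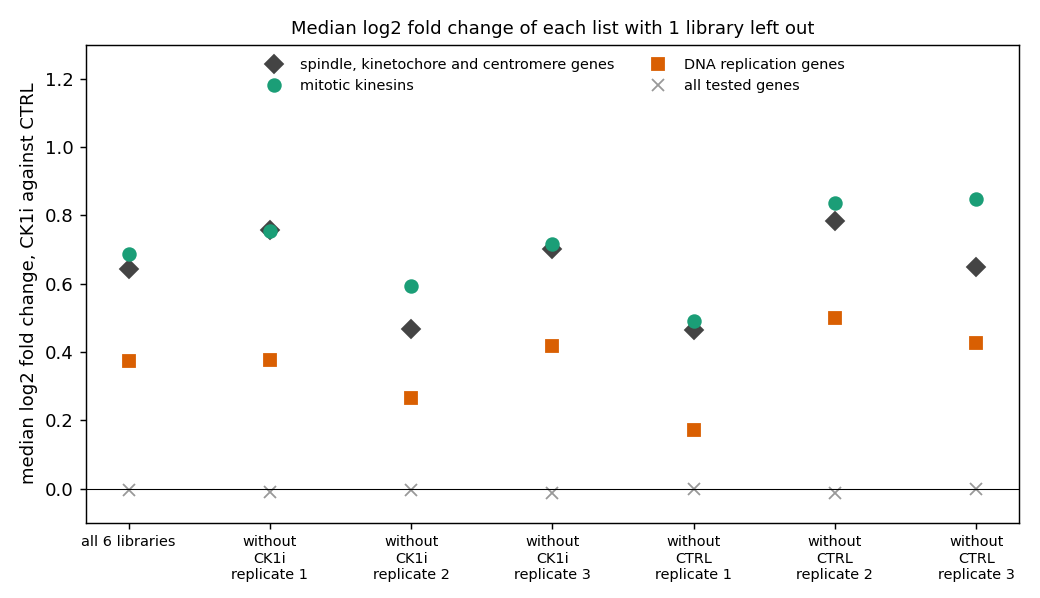
Median log2 fold change of the members, the mitotic kinesins, the DNA replication genes and all tested genes, with all 6 libraries and with each library left out in turn. The members' median stays above 0 in each case, lowest at 0.46 without CTRL replicate 1.

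Library totals ran from 2472064 to 3105137 counts, and a count of 0 over all 6 libraries allows at most 0.176 CPM, which is what 3 counts are worth. Summed B-lineage markers lay between 16702 and 21583 CPM in CK1i and between 18904 and 22302 CPM in CTRL, so the sorted cells carried the labelled lineage. Summed T-cell markers were 3.59 to 22.1 CPM in CK1i and 5.19 to 12.4 CPM in CTRL, and neutrophil markers 0 to 3.62 CPM and 0 CPM, with 5 of 8 at 0 counts, Mpo and Ly6g among them. The 10 monocyte and macrophage markers, with Cd14 and Cd163 at 0 counts, summed to 34.6 to 40.8 CPM in CK1i and 24.1 to 27.9 CPM in CTRL, without overlap, mostly through Cd68. The 7 germinal centre markers, with Gcsam at 0 counts, summed to 28.7 to 33.2 CPM in CK1i and 21.96 to 28.8 CPM in CTRL. The 7 plasma cell markers were lowest in CK1i replicate 2, at 1029 CPM, the library in which the members were highest, and lay between 1720 and 2538 CPM in the other 5. NK-cell, erythroid and platelet markers summed to at most 8.01 CPM in any library. Dendritic markers were 48.1 to 103 CPM in CK1i and 45.9 to 105 CPM in CTRL, almost wholly through Ccr9. The other dendritic markers were each at most 2.01 CPM. Stromal and endothelial markers were 163 to 177 CPM and 176 to 191 CPM, almost wholly through Pecam1. Of these, Kdr, Col3a1 and Cxcl12 had 0 counts. The part of such other cell types in the members' values was not tested.

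The promoters of genes expressed late in the cell cycle often carry CCAAT boxes, which the factor NF-Y binds, and a cell cycle genes homology region, TTTGAA, through which the DREAM and MuvB complexes act. RefSeq promoters (build GRCm38.p6, 250 bases before to 50 after the start) were found for 49 of the 55 members, in 56 entries. Both strands were searched, and the letters of CCAAT and TTTGAA can overlap by 1 base. CCAAT was present in 76.8% of the member promoters and in 37.4% of all 32851 promoters of this length, and at least 2 copies in 44.6% against 11.7%. TTTGAA was present in 60.7% against 17.9%, and both together in 48.2% against 6.95%. Among the 22 tested members with a promoter and a fold change above the members' median, 17 held CCAAT and 15 TTTGAA, and among the other 26 the numbers were 19 and 15. These matches describe letters in a window and are not evidence of binding. The 150 bases before the start are shown, 5′ to 3′ on the gene's strand, for members picked by hand. In 4 of them the groups did not overlap, and in Zw10 they did. This choice does not stand for all members. Nusap1 and Birc5, with groups that did not overlap, held neither motif, and Plk1 and Ckap5, with groups that did, held both. Capitals mark CCAAT (or ATTGG, its other strand) and TTTGAA (or TTCAAA).
Cenpf (chr1:189688087-189688236, minus strand): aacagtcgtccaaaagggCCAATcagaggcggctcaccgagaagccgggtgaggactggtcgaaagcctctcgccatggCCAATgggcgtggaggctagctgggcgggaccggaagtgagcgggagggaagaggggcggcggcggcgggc
Ckap2l (chr2:129297213-129297362, minus strand): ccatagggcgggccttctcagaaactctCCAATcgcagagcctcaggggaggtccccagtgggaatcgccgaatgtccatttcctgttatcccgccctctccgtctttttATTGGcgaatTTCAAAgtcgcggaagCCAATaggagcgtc
Hmmr (chr11:40733438-40733587, minus strand): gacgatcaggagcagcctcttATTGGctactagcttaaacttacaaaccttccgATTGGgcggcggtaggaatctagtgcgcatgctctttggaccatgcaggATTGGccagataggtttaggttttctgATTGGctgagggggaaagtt
Espl1 (chr15:102296143-102296292, plus strand): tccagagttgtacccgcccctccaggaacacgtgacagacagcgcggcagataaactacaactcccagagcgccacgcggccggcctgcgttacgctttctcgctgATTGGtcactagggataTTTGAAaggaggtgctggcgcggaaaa
Zw10 (chr9:49055431-49055580, plus strand): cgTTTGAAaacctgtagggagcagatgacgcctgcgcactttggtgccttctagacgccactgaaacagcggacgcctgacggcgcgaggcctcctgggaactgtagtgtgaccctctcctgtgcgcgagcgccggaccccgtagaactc
Within the stretch shown, Cenpf had CCAAT 132 and 71 bases before the start. Hmmr held 4 copies in its stretch, 129, 96, 47 and 20 bases before the start, all as ATTGG. In Ckap2l a TTCAAA at 30 bases lay between ATTGG at 40 and CCAAT at 14, with a further CCAAT at 122, and in Espl1 a TTTGAA at 27 followed an ATTGG at 44. The Zw10 stretch held 1 TTTGAA, 148 bases upstream, and no CCAAT. The searched windows were longer than these stretches. That of Hmmr held a further ATTGG 172 bases before the start. TTTGAA, on either strand, also lay after the start, at base 9 in Hmmr, 3 in Cenpf and 42 in Ckap2l.

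Among the mitotic kinases, which set the order of events in mitosis, the median fold change was 0.62 over 4 tested genes, or 0.38 without CTRL replicate 1 and also 0.38 without CK1i replicate 2. Bub1, the kinase that recruits checkpoint proteins and shugoshin to the kinetochore, was measured at 23.03, 33.9 and 23.3 CPM in CK1i and 8.52, 17.96 and 15.02 CPM in CTRL. Each CK1i library was above each CTRL library, and the log2 fold change was 0.96 ± 0.27 (edgeR adjusted p = 0.763). Aurka, which matures centrosomes, stood at 25.01, 30.01 and 25.7 CPM in CK1i and 12.1, 23.6 and 17.4 CPM in CTRL. Its groups did not overlap either, with CK1i replicate 1 only just above CTRL replicate 2, and the fold change of 0.61 ± 0.24 was 0.40 without CTRL replicate 1. Plk1, the polo-like kinase of centrosome maturation and mitotic exit, reached 56.6, 116 and 64.97 CPM in CK1i and 30.2, 53.9 and 69.8 CPM in CTRL. Here CTRL replicate 3 exceeded 2 of the CK1i libraries, and the fold change of 0.63 ± 0.37 dropped to 0.24 when CK1i replicate 2 was left out and to 0.35 when CTRL replicate 1 was. Ttk, the checkpoint kinase also called Mps1, was at 67.8, 98.8 and 55.3 CPM in CK1i and 52.2, 59.9 and 59.8 CPM in CTRL. Its groups overlapped, CK1i replicate 2 alone was far from the rest, and the fold change of 0.37 ± 0.19 was 0.10 without that library.

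The checkpoint genes included one of the smallest p-values of the set, for Kntc1. Kntc1 (5:123749716-123821593 on GRCm38) encodes ROD, a subunit of the RZZ complex, which brings dynein and the MAD proteins to unattached kinetochores. Its level was 31.3, 34.9 and 30.9 CPM in CK1i and 13.8, 19.96 and 15.02 CPM in CTRL, or 32.3 ± 2.22 CPM in CK1i and 16.3 ± 3.24 CPM in CTRL (mean ± SD, n = 3). The CK1i libraries lay close together and all stood above the highest CTRL library, CTRL replicate 2. The log2 fold change was 1.00 ± 0.20, with an unadjusted p of 0.000208 and an adjusted p of 0.393 in edgeR. The other RZZ subunits had smaller differences. Zwilch was at 32.2, 56.8 and 30.5 CPM in CK1i and 22.7, 26.7 and 30.05 CPM in CTRL, with groups that were separated by a narrow gap between CK1i replicate 3 and CTRL replicate 3. Its fold change of 0.59 ± 0.24 was 0.24 without CK1i replicate 2. Zw10, which also acts in membrane traffic outside mitosis, was at 21.1, 20.2 and 27.3 CPM in CK1i and 23.8, 17.96 and 23.04 CPM in CTRL. The Zw10 groups overlapped, its fold change was 0.07 ± 0.21, and its sign turned without CK1i replicate 3 or CTRL replicate 2.

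Bub1b encodes BUBR1, which with MAD2 forms the complex that holds back the anaphase-promoting complex. It was measured at 54.6, 77.3 and 55.7 CPM in CK1i and 30.2, 47.1 and 42.4 CPM in CTRL, with no overlap of the groups and a fold change of 0.65 ± 0.20. Mad2l1, which encodes MAD2 itself, was at 105, 104 and 101 CPM in CK1i and 60.7, 87.02 and 75.5 CPM in CTRL. The 3 CK1i libraries lay within a few CPM of each other, above all CTRL libraries, and the fold change was 0.48 ± 0.15. Bub3, the partner of both BUB1 and BUBR1 and the most abundant member by counts, had a fold change of 0.36 ± 0.15 without overlap. Of the 6 checkpoint genes, Zw10 alone had overlapping groups, and the other 5 were past an unadjusted p of 0.05, a count that was 3 with CK1i replicate 2 left out and likewise 3 with CTRL replicate 1 left out.

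All 4 genes of the chromosomal passenger complex, which corrects faulty attachments at the inner centromere and later moves to the central spindle, had groups that did not overlap. Their fold changes covered the narrow range of 0.65 to 0.79. This range was 0.48 to 0.59 without CTRL replicate 1 and 0.46 to 0.67 without CK1i replicate 2. Cdca8, which encodes borealin, was at 112, 130.5 and 93.8 CPM in CK1i and 45.4, 78.2 and 70.8 CPM in CTRL. Every CK1i library lay above the highest CTRL library, and the fold change was 0.79 ± 0.20 (edgeR adjusted p = 0.544). Incenp, the scaffold of the complex, was at 76.01, 112 and 82.6 CPM in CK1i and 43.7, 66.7 and 62.8 CPM in CTRL. Aurkb, its kinase, was at 50.7, 74.05 and 48.9 CPM in CK1i and 25.6, 45.9 and 33.7 CPM in CTRL. In both genes CK1i replicate 2 stood clear of the other libraries and CTRL replicate 1 was lowest, with fold changes of 0.65 ± 0.19 and 0.73 ± 0.23. Birc5, which encodes survivin, was at 132, 174 and 108 CPM in CK1i and 45.1, 92.2 and 106 CPM in CTRL. Its lowest CK1i library, replicate 3, was only slightly above CTRL replicate 3, and the fold change of 0.77 ± 0.31 was 0.48 without CTRL replicate 1.

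The inner centromere proteins had the smallest median of the 8 role groups, 0.43 over 11 genes, or 0.27 without CK1i replicate 2. At an unadjusted p of 0.05, 4 of them were higher. That number was 0 without CTRL replicate 1, 0 without CTRL replicate 3, 1 without CK1i replicate 2 and 2 without CK1i replicate 3. Of all genes, 3.07%, 2.26%, 1.73% and 2.13% were higher in those fits. Among the 11, only Cenpq and Cenpw had groups that did not overlap. Cenpq, of the complex that links centromeric chromatin to the outer kinetochore, was at 39.8, 31.6 and 34.5 CPM in CK1i and 25.2, 29.9 and 23.4 CPM in CTRL, with a fold change of 0.44 ± 0.18. Cenpw, a histone-fold protein, was at 30.3, 30.01 and 35.3 CPM in CK1i and 22.4, 27.1 and 21.4 CPM in CTRL, with a fold change of 0.43 ± 0.19. In both genes the gap between the lowest CK1i library and CTRL replicate 2 was small. Cenph stood at 47.7, 64.6 and 51.3 CPM in CK1i and 22.7, 51.1 and 29.7 CPM in CTRL. CTRL replicate 2 was above CK1i replicate 1, so the groups overlapped, although the fold change of 0.67 ± 0.26 was the largest of the role group. It was 0.44 without CTRL replicate 1 and 1.05 without CTRL replicate 2. Cenpp was at 10.2, 12.7 and 14.04 CPM in CK1i and 5.32, 10.4 and 8.01 CPM in CTRL, again with CTRL replicate 2 above CK1i replicate 1, and the fold change of 0.64 ± 0.30 was 0.42 without CTRL replicate 1. Cenpl was at 47.4, 48.6 and 33.7 CPM in CK1i and 32.7, 47.5 and 39.4 CPM in CTRL. Its CTRL replicate 2 lay between the 2 highest CK1i libraries, just above CK1i replicate 1. The fold change of 0.12 ± 0.19 ran from -0.002 without CTRL replicate 1 to 0.26 without CK1i replicate 3. Cenpa, the histone variant that marks the centromere, had a fold change of 0.29 ± 0.19 with overlapping groups. The remaining 5 had fold changes of 0.53 ± 0.28 (Cenpi), 0.45 ± 0.23 (Cenpk), 0.39 ± 0.36 (Cenpm), 0.30 ± 0.24 (Cenpn) and 0.13 ± 0.28 (Cenpu), and none was past an unadjusted p of 0.05.

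Outer kinetochore genes held both the second largest and one of the smallest fold changes of all members. Their median was 0.65 over 10 genes, or 0.43 without CK1i replicate 2, and 6 were higher at an unadjusted p of 0.05, or 2 without that library. Cenpf (1:189640606-189688086), a large coiled-coil protein of the fibrous corona that helps to load dynein regulators, was at 59.6, 123 and 63.4 CPM in CK1i and 31.6, 35.9 and 35.1 CPM in CTRL. The 3 CTRL libraries were nearly equal, and all CK1i libraries were higher, with replicate 2 far above the other CK1i libraries. The means were 81.9 ± 35.4 CPM in CK1i and 34.2 ± 2.29 CPM in CTRL (mean ± SD, n = 3), the log2 fold change was 1.26 ± 0.26 (edgeR adjusted p = 0.409), and it was 0.84 without CK1i replicate 2. Cenpe, the kinesin that moves chromosomes to the spindle equator, was at 56.3, 90.4 and 45.3 CPM in CK1i and 22.4, 37.5 and 33.4 CPM in CTRL. Its groups did not overlap, and its fold change of 1.05 ± 0.27 was 0.71 without CK1i replicate 2.

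Knl1, the platform to which BUB1 and BUBR1 are recruited, was at 33.9, 56.1 and 31.3 CPM in CK1i and 17.7, 26.7 and 28.4 CPM in CTRL, with groups apart by a small gap. Its fold change of 0.74 ± 0.25 was 0.42 without CK1i replicate 2. Of the SKA complex, which stabilises the grip on the microtubule, the 3 subunits had unequal fold changes. Ska1 was at 24.7, 30.99 and 20.1 CPM in CK1i and 7.45, 19.96 and 15.02 CPM in CTRL. CK1i replicate 3 and CTRL replicate 2 were nearly level, but the groups did not overlap, and the fold change of 0.85 ± 0.30 was 0.54 without CTRL replicate 1. Ska2 also had groups that did not overlap, with a fold change of 0.50 ± 0.22. Ska3 was at 14.5, 21.2 and 10.4 CPM in CK1i and 10.6, 18.8 and 15.02 CPM in CTRL. In Ska3 the lowest of all 6 libraries was a CK1i library, and the fold change of 0.07 ± 0.29 turned negative without CK1i replicate 2 or CTRL replicate 1. Differences between the subunits themselves were not tested. In the NDC80 complex, which binds microtubules directly, the fold changes were 0.56 ± 0.26 for Ndc80, 0.35 ± 0.30 for Nuf2, 0.82 ± 0.30 for Spc24 and 0.52 ± 0.25 for Spc25, all with overlapping groups. Of these 4, Spc24 alone was past an unadjusted p of 0.05.

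Sister chromatid cohesion is protected at the centromere by shugoshins and cut at anaphase by separase. Sgo2a (1:57995971-58025899), a shugoshin, was at 26.7, 36.2 and 28.9 CPM in CK1i and 14.6, 17.96 and 14.7 CPM in CTRL. The CTRL libraries lay within a narrow range and every CK1i library was above them, with a fold change of 0.96 ± 0.21 (edgeR adjusted p = 0.409). Sgo1, the shugoshin of mitotic centromeres, was at 16.8, 34.6 and 23.3 CPM in CK1i and 13.8, 19.96 and 20.4 CPM in CTRL. CK1i replicate 1 lay among the CTRL libraries, and the fold change of 0.46 ± 0.27 was 0.14 with CK1i replicate 2 left out and 0.30 with CTRL replicate 1 left out. Espl1, which encodes separase, was at 56.3, 91.99 and 58.6 CPM in CK1i and 23.8, 53.1 and 43.1 CPM in CTRL. Its groups were apart, narrowly between CK1i replicate 1 and CTRL replicate 2, and its fold change of 0.79 ± 0.29 was 0.52 with either of CK1i replicate 2 and CTRL replicate 1 left out.

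The largest median, 0.97, belonged to the 11 genes of spindle assembly and poles. It was 0.66 without CTRL replicate 1 and 0.75 without CK1i replicate 2. Of the 11, 9 had groups that did not overlap and the same number were past an unadjusted p of 0.05. Troap (15:99074575-99083409), also called tastin, a protein needed for bipolar spindles and intact centrosomes, was at 23.03, 34.6 and 30.5 CPM in CK1i and 11.004, 13.2 and 8.68 CPM in CTRL. Its highest CTRL library lay well below its lowest CK1i library, CK1i replicate 1. The means were 29.4 ± 5.85 CPM in CK1i and 10.95 ± 2.25 CPM in CTRL (mean ± SD, n = 3), and the log2 fold change was 1.43 ± 0.24, with an unadjusted p of 2.9e-05 and an adjusted p of 0.224 in edgeR. DESeq2 gave Troap an adjusted p of 0.00596, and the other members it passed were Cenpf at 0.00596 and Nusap1 at 0.0202. Nusap1 (2:119618298-119651244), which bundles microtubules near chromatin, was at 72.1, 90.03 and 67.8 CPM in CK1i and 23.1, 49.1 and 35.4 CPM in CTRL, or 76.6 ± 11.8 CPM in CK1i and 35.9 ± 13.02 CPM in CTRL (mean ± SD, n = 3). All CK1i libraries lay above the highest CTRL library, and the fold change was 1.10 ± 0.23 (edgeR adjusted p = 0.409).

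Hmmr, a spindle pole protein that helps to place TPX2, was at 33.6, 43.4 and 31.7 CPM in CK1i and 11.4, 21.6 and 20.03 CPM in CTRL, and Ckap2l, a spindle protein also called radmis, at 27.6, 42.7 and 25.3 CPM in CK1i and 8.87, 17.96 and 16.02 CPM in CTRL. In both genes CTRL replicate 1 was far below the other libraries and the groups did not overlap, with fold changes of 1.04 ± 0.24 and 1.17 ± 0.28. Ckap2 had a fold change of 1.03 ± 0.31, Tpx2, which activates Aurora A, 0.97 ± 0.32, and Spag5, also called astrin, 0.91 ± 0.27. For Aspm, a spindle pole protein, it was 0.68 ± 0.21, and for Tacc3, which crosslinks spindle microtubules, 0.41 ± 0.17. None of these 5 had overlapping groups. The exceptions were Ckap5 and Kifc1. Ckap5, a microtubule polymerase also used outside mitosis, was at 49.7, 66.5 and 56.9 CPM in CK1i and 40.1, 60.3 and 49.7 CPM in CTRL. Its groups overlapped, and its fold change of 0.21 ± 0.18 ran from 0.07 without CTRL replicate 1 to 0.35 without CTRL replicate 2. Kifc1, a kinesin that clusters centrosomes, rested on 59 counts in all, and its fold change of 0.29 ± 0.49 was -0.13 without CTRL replicate 1.

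**Figure D4:**
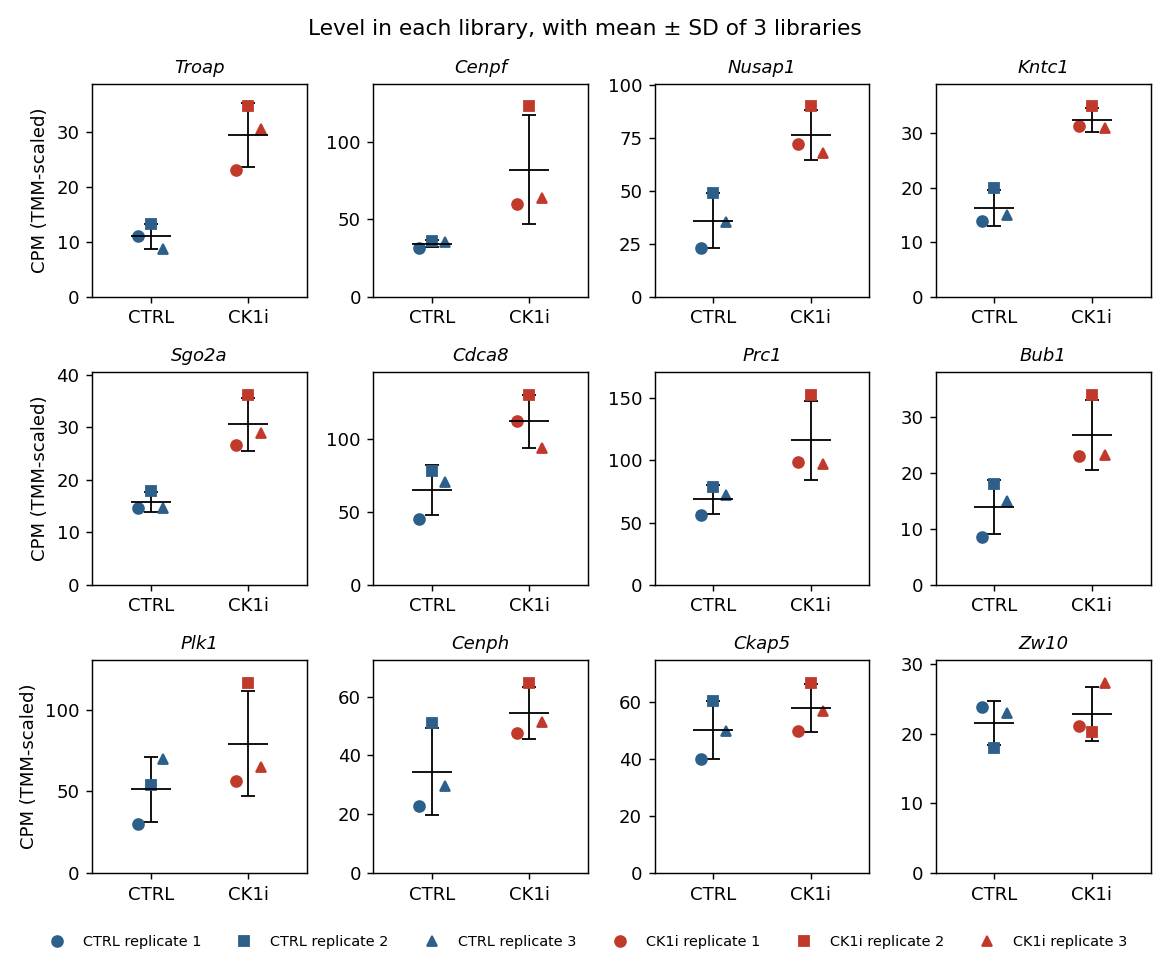
Level in CPM (TMM-scaled) of 12 members in each of the 6 libraries, with horizontal lines at the group mean and bars of 1 SD (n = 3); each panel has its own axis from 0. Troap, Cenpf, Nusap1, Kntc1, Sgo2a, Cdca8, Prc1 and Bub1 have groups that do not overlap, while Plk1, Cenph, Ckap5 and Zw10 have groups that do.

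Of the 5 genes of the central spindle and cytokinesis, 4 had groups that did not overlap. Cep55, which brings the abscission machinery to the midbody, was at 12.2, 11.7 and 16.4 CPM in CK1i and 5.32, 7.19 and 5.01 CPM in CTRL. All CTRL libraries lay below all CK1i libraries, and its fold change of 1.20 ± 0.29 was the largest of the role group. Prc1, which crosslinks the antiparallel microtubules of the central spindle, was at 98.4, 153 and 97.5 CPM in CK1i and 56.1, 78.6 and 71.8 CPM in CTRL. Its groups were apart, and its fold change of 0.76 ± 0.19 was 0.51 without CK1i replicate 2. Ect2, the exchange factor that activates RhoA at the equator, was at 23.03, 26.7 and 28.5 CPM in CK1i and 12.4, 22.4 and 11.4 CPM in CTRL. CTRL replicate 2 came near the lowest CK1i library without reaching it, and the fold change was 0.77 ± 0.25. Racgap1, which with a kinesin forms the centralspindlin complex that recruits ECT2, was abundant at 234, 258 and 207 CPM in CK1i and 164, 203 and 163 CPM in CTRL, with groups that were only just apart and a fold change of 0.40 ± 0.15. Anln, the anillin scaffold of the contractile ring, had a fold change of 0.76 ± 0.36 with overlapping groups.

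For 28 members the GENCODE annotation places another gene on the same stretch, and for 10 of them that gene had over 50 counts, in each case on the opposite strand. Sgo2a, with 394 counts, overlaps Kctd18, with 504. Cenpk overlaps Ppwd1, with 910 counts, Cenpq overlaps Mut, with 498, and Cenpu overlaps Primpol, with 360. The sources used here do not give the strand setting of the counting, so reads of these pairs may not be separated, and the values of these members are uncertain. The other 6 are Nusap1, Cdca8, Tacc3, Prc1, Ska3 and Cenpp.

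Other genes of the same structures, listed apart from the members, had medians below the 0.64 of all members. Of 20 other centromere and kinetochore genes, 16 had a fold change above 0, and the median was 0.44. The inner centromere members had a median of 0.43 and the outer kinetochore members 0.65. At an unadjusted p of 0.05, 8 were higher and 0 lower, against 2.70% and 2.00% of all genes. In 7, every CK1i library lay above every CTRL library, against 5.22% of all genes. Among the genes of this list with the smallest p were Hjurp, which loads CENP-A, at 0.47 ± 0.17, and Cdca2 at 0.87 ± 0.31. Mis12, a subunit of the outer kinetochore, was another, at 0.44 ± 0.17. The count of 8 was 0 without CK1i replicate 2, 3 without CTRL replicate 1 and 4 without CK1i replicate 3. Of all genes, 1.73%, 3.07% and 2.13% were higher in those fits. Among 40 tested genes of the centrosome, the augmin and gamma-tubulin complexes and cytokinesis, 30 were above 0 with a median of 0.14. At an unadjusted p of 0.05, 5 were higher, against 2.70% of all genes. That count was 0 without CK1i replicate 2, against 1.73% of all genes, and 3 without CK1i replicate 1, against 2.75%. Cit, the citron kinase of the midbody, had 0.58 ± 0.18 and Stil, a centriole assembly factor, 0.74 ± 0.26. Of 14 cohesin genes and regulators, 10 were above 0 with a median of 0.14, or 0.06 without CTRL replicate 1. Esco2, the acetyltransferase that establishes cohesion during replication, was the 1 cohesin gene past an unadjusted p of 0.05, at 0.82 ± 0.25. That count was 0 with CK1i replicate 2 left out, 2 with CK1i replicate 3 left out and 4 with CTRL replicate 3 left out. Of all genes, 1.73%, 2.13% and 2.26% were higher in those fits, and 2.70% with all 6 libraries.

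The mitotic kinesins and the genes of DNA replication were measured in the same fit. Of 11 tested kinesins 10 were above 0, with a median of 0.69. At an unadjusted p of 0.05, 8 were higher, against 2.70% of all genes. That count was 5 with either CK1i replicate 2 or CTRL replicate 1 left out, against 1.73% and 3.07% of all genes. Kif20a, which carries the passenger complex to the central spindle, had a fold change of 0.87 ± 0.18 and Kif23, the partner of RACGAP1 in centralspindlin, 0.88 ± 0.22. Of 36 replication genes, which act in S phase before the spindle forms, 34 were above 0, with a median of 0.37. At an unadjusted p of 0.05, 5 were higher, against 2.70% of all genes. The median of the 36 was 0.17 without CTRL replicate 1. The count of 5 was 1 (2.78%) without CK1i replicate 2 or without CTRL replicate 1, against 1.73% and 3.07% of all genes. It was 13 without CTRL replicate 2, against 3.61% of all genes. Without CK1i replicate 3 or CTRL replicate 3 it was 3, against 2.13% and 2.26%. Rrm1, a subunit of ribonucleotide reductase, had 0.53 ± 0.18, and Mcm4, of the replicative helicase, 0.59 ± 0.22. The difference between the members' median and those of these lists was not tested.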

How the data were processed

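Whole-number counts per gene were deposited by the authors for 6 libraries of QuantSeq 3' forward chemistry with unique molecular identifiers, per the labels' protocols. Per the submitters' processing notes, which give no order, the tools were STAR 2.7.3a, featureCounts 1.6.3, UMI-tools 1.1.1, Trimmomatic 0.36, Picard 2.18.27, FastQC 0.11.9, bcl2fastq 2.20.0.422, Seurat and limma, with build GRCm38.p6. The sources used here do not say whether identifiers were collapsed before counting, and the floor for a count of 0 covers counting error only. All libraries carry 1 batch label. Replicates were numbered in accession order and pair no samples.

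These counts were tested with edgeR 4.0.16 (R 4.3.3): filterByExpr (minimum count 10, minimum total 15), TMM and the robust, bias-adjusted quasi-likelihood F test, two-sided, with Benjamini-Hochberg adjustment over 10067 genes and a threshold of 0.05. The SE is the log2 fold change divided by the root of F. The common biological coefficient of variation was 0.16, and log2 CPM used a prior count of 2. The fit was tested on simulated data. Groups were called apart where all CK1i values lay above, or all below, all CTRL values. Alternatives were DESeq2 1.42.0, limma-voom (limma 3.58.1), other size factors, other filters and leaving out each library.

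The rule for the members uses no measured value, but the members, gene lists, motifs and tests were chosen with earlier results of these data known. Per-library values are written out for the 4 members of each role group with the smallest p and the one nearest 0, and other lists are represented by genes among their 4 smallest p. A gene of those other lists is not reported here. Cd68 and the other markers named come from fixed lists. Gene symbols are those of the table, and coordinates are of GENCODE M21 on GRCm38. Hjurp was matched through the GENCODE symbol. No protein sequences were used here.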

Additional observations from a re-analysis of the deposited data

How the results depend on the processing

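DESeq2 size factors or library totals in edgeR, the filter of 30 counts in 3 libraries and limma-voom each gave 0 genes past an adjusted p of 0.05. With no filter, 3 genes passed, 1 of them a member (Troap, adjusted p 0.0020). With DESeq2, 8 genes passed, 3 of them members. With 1 library left out, edgeR called 0 to 1 of all genes and 0 members, and 21 to 38 members had an unadjusted p under 0.05, all of them higher, the lowest without CK1i replicate 2. Of all genes, 1.73% to 3.61% were higher at that p in these fits. The members' median log2 fold change ran from 0.464 to 0.782 in these fits and from 0.642 to 0.656 under the other settings. The sign turned for 4 members. With 1 library left out, the fold change of Zw10 ran from -0.076 (CK1i replicate 3 left out; -0.048 with CTRL replicate 2 left out) to 0.15. That of Cenpl ran from -0.002 (CTRL replicate 1) to 0.263, and that of Ska3 from -0.236 (CK1i replicate 2; -0.118 with CTRL replicate 1) to 0.267, while Kifc1 ran from -0.13 (CTRL replicate 1) to 0.66. Of 420 pairs of a named member and a setting, 411 kept their direction and side of the threshold, 4 passed it newly, 5 turned sign, and the cause was not tested. Over all genes, log2 fold changes had a median SE of 0.195 with 3 libraries in each group.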
